A study of Homo sapiens with 18 samples.

Results

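The genes HSPA5, HSP90B1, CALR, PDIA4, DNAJB9, DDIT3, XBP1 and ATF4 of the endoplasmic reticulum (ER) stress response were examined in ChIP-seq peak lists of HEK293T, a human cell line derived from embryonic kidney. They are 8 of the 19111 protein-coding genes on chromosomes 1 to 22. Their peaks were taken by position alone. A peak belonged to a gene when it shared at least 1 bp with the gene body of the GENCODE annotation of hg38 or with the 10 kb on either side. By this rule 132 of 205931 H3K27ac peaks and 47 of 300428 CTCF peaks lay at the 8 genes. Valproic acid (VPA), which inhibits histone deacetylases, was given at 1 mM for 1 day, control cells (CTRL) got no treatment, and each of the 4 combinations of antibody and treatment had 3 replicates. All groups were of this cell line, and no further alteration was named for any of them. The labels do not say whether the replicates were separate cultures, so the tests below measure the spread between these samples, which may be technical. RNA was not analysed here.

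When unfolded proteins accumulate in the ER, a set of membrane sensors becomes active and raises the transcription of chaperones. HSPA5 (BiP) is the main chaperone of the ER lumen, keeps the sensors inactive while it is bound to them, and is known to be raised by VPA. Cleaved ATF6 binds the ER stress response element (ERSE) together with the CCAAT-binding factor NF-Y, spliced XBP1 is the transcription factor of the IRE1 branch, and ATF4 is the translationally induced factor of the PERK branch. Acetylation of histone H3 at lysine 27 (H3K27ac) is a mark of active regulatory DNA, and CTCF is a zinc-finger protein found at the ends of chromatin loops.

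The ERSE was a promoter feature that some of these genes shared. The choice of genes did not use it directly. Chaperone genes of this response are known for the element, however, so its presence here is not an independent result. It was searched as CCAAT and CCACG set 9 bases apart, on both strands, in the RefSeq promoters of GRCh38.p14, which span 250 bases before to 50 bases after a gene's start. All 8 genes matched a promoter by symbol. An exact ERSE was present at 4 of them, against 27 of all 35116 promoters (0.0769%). Some genes had 2 promoters, and a gene counted if any of them held the element, while the share is per promoter. The sequences of these promoters are shown because they carry the element that the chaperone genes are known for. The capitals mark its fixed letters, and CGTGG followed by ATTGG is the element on the opposite strand. Each promoter is given as the stretch free of annotated exons that holds the element, within the 250 bases before the start. For XBP1 this stretch spans -113 to -29. Where the element lies within an exon, 30 bases are given. HSPA5 lies on the minus strand (chr9:125241383-125241593), CALR on the plus strand (chr19:12938359-12938577), XBP1 on the minus strand (chr22:28800598-28800682), and HSP90B1 on the plus strand with 2 elements (chr12:103930211-103930240 and chr12:103930316-103930345).
HSPA5: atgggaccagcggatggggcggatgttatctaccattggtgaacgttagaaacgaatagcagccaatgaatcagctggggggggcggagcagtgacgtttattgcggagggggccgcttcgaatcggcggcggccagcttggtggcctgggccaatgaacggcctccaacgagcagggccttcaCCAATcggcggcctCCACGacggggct
CALR: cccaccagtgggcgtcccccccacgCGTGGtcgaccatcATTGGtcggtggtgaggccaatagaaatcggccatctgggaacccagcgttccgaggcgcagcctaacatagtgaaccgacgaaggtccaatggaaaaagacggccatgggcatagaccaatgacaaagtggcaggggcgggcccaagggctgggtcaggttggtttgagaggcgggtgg
XBP1: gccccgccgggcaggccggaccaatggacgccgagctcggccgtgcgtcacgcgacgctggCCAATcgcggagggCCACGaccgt
HSP90B1 upstream element: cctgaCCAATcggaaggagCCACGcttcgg
HSP90B1 downstream element: gggtgCGTGGtgcggcgcgATTGGtgggtt

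The first base of the element lay at -66 in HSPA5, -194 and -89 in HSP90B1, -225 in CALR and -52 in XBP1, counted from the RefSeq start. With 1 mismatch allowed, a search added after the data had been seen, DDIT3 joined them, making 5 of the 8 genes against 1.55% of all promoters. No exact ERSE was found in the windows of PDIA4, DNAJB9, DDIT3 and ATF4. The searched windows of the 8 genes held no exact ERSE-II (ATTGG and CCACG set 1 base apart, 0.0541% of all promoters). Nor did they hold the core of the XBP1 and ATF6 element TGACGTG (1.97%). The ATF4 element (TGATG and AAT set 1 base apart, 0.991%) was also absent from them. Sequence further from the start was not searched, so these elements may lie outside the windows.

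The deposited lists give each peak's interval, its summit and its fold enrichment over the local background. From these values the fragment count at each summit (the summit pileup) was recovered, and the height of a peak is given here as this pileup divided by the background coverage of its library, which lay between 3.51 and 3.95 fragments in the 12 libraries and served as the measure of depth. Peaks per H3K27ac list numbered 26299 to 29799 for CTRL and 38441 to 40992 for VPA, and per CTCF list 36469 to 58782. Replicate 1 of both treatments stood apart at these genes. Under the H3K27ac promoter summits the local background was 15.2 to 85.4 fragments in replicate 1 and 8.07 to 23.6 in the other 4 libraries, so that fold enrichment was lower in replicate 1. As a check of the label, the promoters of PAX2, LHX1, NEFM, VIM and KRT18, chosen as markers of this line, held an H3K27ac peak in 6 of 6 libraries, and those of PTPRC, ALB and MYH6, genes of blood, liver and heart, in 0 of 6.

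Peaks of the 6 libraries that shared at least 1 bp were merged into regions. The region holding the transcription start site (TSS) had an H3K27ac peak at all 8 genes in all 6 libraries, with and without VPA. These promoter peaks ranked between the 78.6th and the 99.5th percentile of their lists by −log10 q-value, and their heights were 60.5 to 365 times the background coverage. In VPA the mean height was lower at 8 of 8 promoters. The share of other promoters with a lower mean was not taken, but their median ratio, given below, was also under 1. The 3 VPA libraries all lay below the 3 CTRL libraries at 6 of the 8, namely HSPA5, CALR, DNAJB9, DDIT3, XBP1 and ATF4. The same order was found at 36.9% of the 10140 shared regions that hold a protein-coding TSS (a shared region is one with a peak in all 6 libraries), and the opposite order at 2.0% of them and at 0 of the 8 genes. The median ratio of VPA to CTRL height was 0.709 over the 8 genes and 0.747 over the 10140 regions. Without VPA replicate 1 the groups were separate at 8 of 8 promoters and at 81.2% of these regions. In bulk chromatin, fewer cells carrying the mark, less of it per cell and a difference in enrichment or scaling between libraries cannot be told apart.

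**Figure D1:**
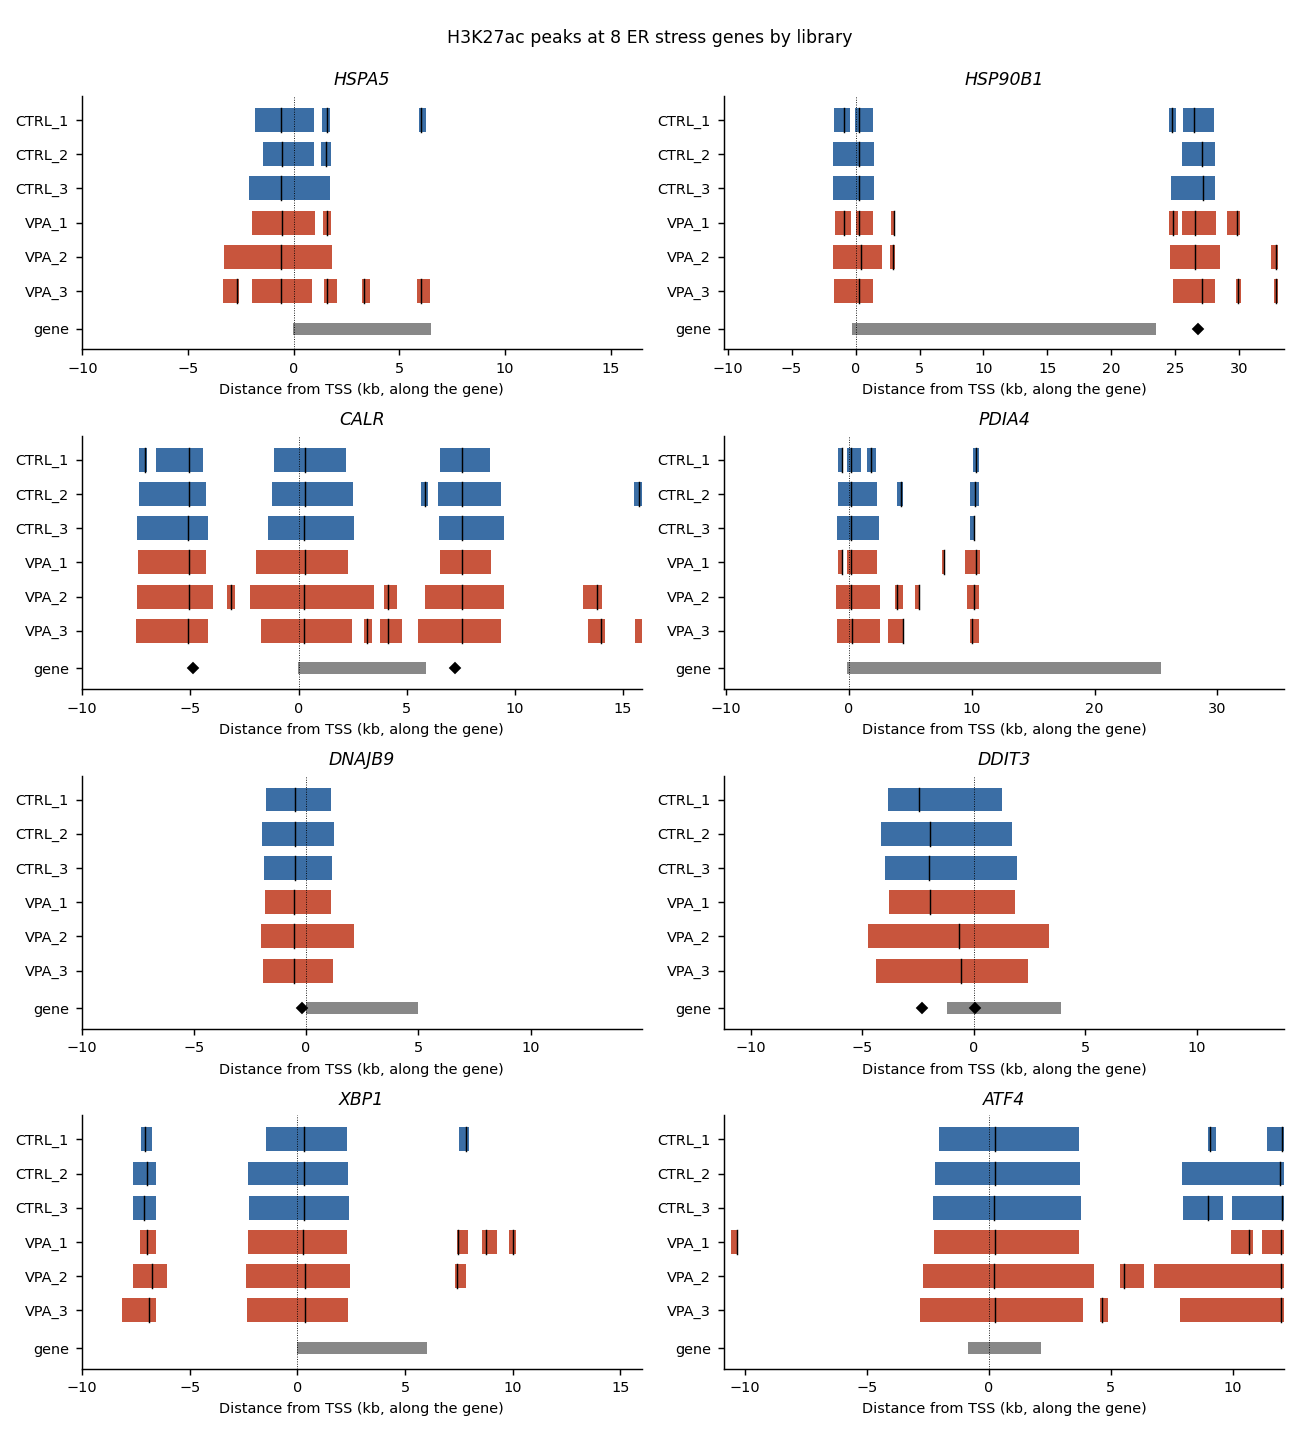
H3K27ac peaks (bars) and their summits (black ticks) in each of the 3 CTRL (blue) and 3 VPA (red) libraries, by distance from the TSS in kb along the gene, with the gene body in grey and the TSS of other protein-coding genes as diamonds. Each gene has a peak in the region that holds its TSS in 6 of 6 libraries. Of the 33 regions 14 have peaks in VPA libraries alone, in 1 or 2 of the 3. Of all H3K27ac regions 39.4% have peaks in VPA libraries alone, in any number of them.

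HSPA5 (chr9:125234853-125241382, minus strand) is described first, as the gene known to respond to VPA. Its promoter heights were 148.2, 136.9 and 118.5 in CTRL and 110.9, 89.11 and 89.34 in VPA, a ratio of 0.717. Every VPA library was lower than every CTRL library, which gives a two-sided exact permutation p of 0.1, the smallest that 3 against 3 samples allow. HSPA5 was also the only one of the 8 genes whose fold enrichment did not overlap between the groups, at 31.46, 31.71 and 43.01 in CTRL and 25.25, 26.88 and 27.51 in VPA. Among the shared regions that hold a TSS, 0.75% had fold enrichment in this order and 0.454% in the opposite order. The local background of replicate 1 at HSPA5, 16.1 fragments in CTRL and 15.2 in VPA, was the lowest of the 8 genes in that replicate. The summit lay 554 to 619 bp upstream of the TSS in all 6 libraries, and that of the strongest peak lay in an exon of the divergent transcript HSPA5-DT. Weak further peaks in the gene were found about 6.04 kb downstream of the TSS in 1 CTRL and 1 VPA library, and 3.31 kb downstream in VPA replicate 3.

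The other chaperones and foldases of the set were HSP90B1 (GRP94, the HSP90 of the ER), CALR (calreticulin, a lectin chaperone that buffers calcium), PDIA4 (a protein disulfide isomerase) and DNAJB9 (ERdj4, a co-chaperone of HSPA5). CALR (chr19:12938578-12944489, plus strand) had promoter heights of 148.2, 124.8 and 116.2 in CTRL and 113.0, 79.75 and 94.54 in VPA, and DNAJB9 (chr7:108569867-108574850, plus strand) of 180.7, 137.2 and 133.0 in CTRL and 121.7, 85.32 and 89.62 in VPA. Neither pair of groups overlapped. At HSP90B1 (chr12:103930107-103953931, plus strand) the heights were 128.4, 98.42 and 84.62 in CTRL and 86.14, 60.51 and 71.58 in VPA, and VPA replicate 1 lay just above CTRL replicate 3. At PDIA4 (chr7:149003062-149028662, minus strand) they were 241.3, 169.1 and 155.3 in CTRL and 186.7, 123.0 and 132.2 in VPA, and again VPA replicate 1 lay within the CTRL range. Within each replicate number VPA was lower at all 4 of these promoters. DNAJB9 shares its promoter with THAP5, whose TSS lies 0.168 kb away on the other strand, so the peak cannot be assigned to one of them.

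Of the transcription factors, ATF4 (chr22:39519695-39522683, plus strand) had the highest promoter peak and the lowest ratio. Its heights were 364.7, 321.4 and 290.0 in CTRL and 215.2, 165.1 and 174.9 in VPA, a ratio of 0.569. XBP1 (chr22:28794555-28800597, minus strand) followed with 320.9, 254.6 and 221.4 in CTRL and 197.3, 144.8 and 156.6 in VPA, a ratio of 0.626. The groups did not overlap at either gene. DDIT3 (CHOP, the factor that links lasting ER stress to cell death, chr12:57516588-57521737, minus strand) had 136.4, 111.3 and 121.7 in CTRL and 110.9, 87.59 and 90.16 in VPA, with the highest VPA value just below the lowest CTRL value. The DDIT3 promoter region also holds the TSS of MBD6, 2.31 kb upstream, and that of ENSG00000285133, whose start lies 0.034 kb from that of DDIT3. Its summit was 2486, 1984 and 1995 bp upstream of the DDIT3 TSS in CTRL and 1978, 678 and 592 bp upstream in VPA. It thus lay nearer to MBD6 in 4 libraries and nearer to DDIT3 in VPA replicates 2 and 3. The heights of this region therefore partly compare different positions, and the lower VPA values cannot be assigned to the DDIT3 promoter alone. By mean CTRL height the order was ATF4, XBP1, PDIA4, DNAJB9, HSPA5, CALR, DDIT3 and HSP90B1, and the CTRL values of each neighbouring pair in this order overlapped.

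**Figure D2:**
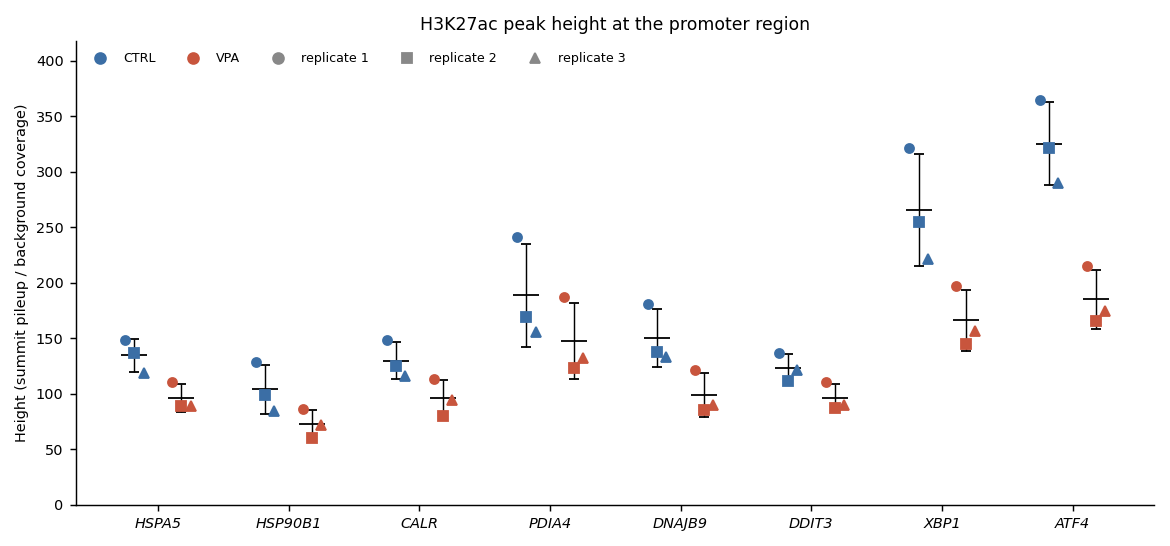
Height of the H3K27ac promoter peak (summit pileup divided by background coverage, so without a unit) of each gene in the 3 CTRL (blue) and 3 VPA (red) libraries, with the mean and SD in black. The groups are separate at 6 of 8 genes, and at HSP90B1 and PDIA4 the VPA library of replicate 1 reaches into the CTRL range.

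Strength was tested across all 18407 shared H3K27ac regions with limma on log2 fold enrichment, each library being centred on its median. Before centring, the median of VPA minus that of CTRL was -0.0859 on the log2 scale. With Benjamini-Hochberg adjustment 0 regions (0%) passed an adjusted p of 0.05, and 1347 had an unadjusted p under 0.05. At the 8 promoters the limma log2 change ran from -0.55 (SE 0.33) at XBP1 to 0.05 (SE 0.31) at PDIA4, with adjusted p of 0.715 to 0.983. It was below 0 at 7 of 8, and its median over all shared regions with a TSS was -0.182. With the replicate number as a block, 1119 regions (6.08%) were called lower and 1264 (6.87%) higher, and still 0 of the 8 promoters, the nearest being XBP1 with an adjusted p of 0.0855 in limma.

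The same limma test on the summit pileup, which leaves the local background out, called 22.5% of the shared regions lower in VPA and 12.2% higher. Among the regions that hold a TSS it called 33.3% lower. It called 3 of the 8 promoters lower, ATF4 by -0.58 (SE 0.08, adjusted p = 0.00611), XBP1 by -0.43 (SE 0.08, adjusted p = 0.0123) and DNAJB9 by -0.37 (SE 0.07, adjusted p = 0.0109), and none higher. These changes are relative to the median region, whose own pileup changed by -0.239 on the log2 scale. HSPA5 changed by -0.24 (SE 0.09, adjusted p = 0.0896) in limma without a block. With the replicate block, a fit added after the data had been seen, its adjusted p in limma was 0.035. In this fit 4 of the 8 promoters were called lower and 0 higher. Of the 18407 shared regions it called 5450 (29.6%) lower and 4457 higher. The share among regions with a TSS was not taken for this fit. When heights were centred on each library's median, the VPA libraries lay below the CTRL libraries at 6 of the 8 promoters and at 48.0% of the regions with a TSS. Within replicate numbers, VPA was lower in all 3 pairs at 8 of 8 promoters and at 80.2% of these regions. In the paired comparison the share among the 8 genes was thus near that of promoters in general. In the unpaired ones it was 6 of 8 against 36.9%, and against 48.0% after centring. The CTRL mean height had a median of 104 over the regions with a TSS. At the 8 genes it ran from 104 at HSP90B1 to 325 at ATF4. The shares were not matched for height, and whether the 8 genes differ from promoters in general was not tested.

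**Figure D3:**
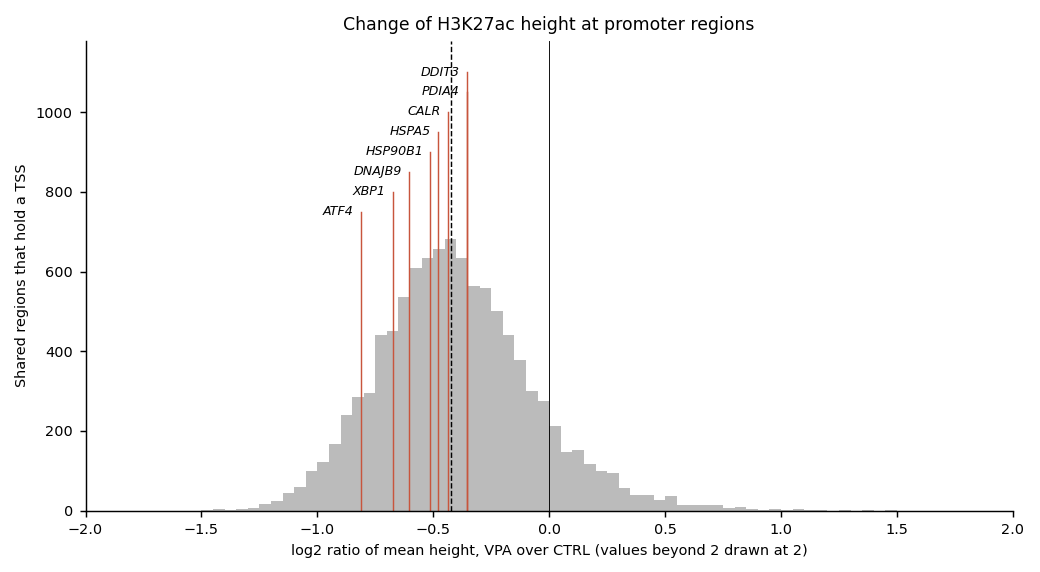
Histogram of the log2 ratio of mean H3K27ac height, VPA over CTRL, at the 10140 shared regions that hold a protein-coding TSS, with the 8 genes as red lines, the median region dashed and no change as a solid line. All 8 genes lie below 0 within the body of the distribution, from ATF4 on the left to PDIA4 and DDIT3, whose ratio was 0.781.

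While the promoter peaks were lower in VPA, the length of sequence under H3K27ac peaks was longer. The covered length of the gene body and the 10 kb on either side was longer on average in VPA at 8 of 8 genes, with a median ratio of 1.26. The median over the 15338 genes with a CTRL peak was 1.29, and the share of them with a longer mean was not taken. The groups did not overlap at HSP90B1 and XBP1, 2 of the 8 genes, both longer in VPA. Of the 16041 genes with any H3K27ac peak 31.6% had this order and 0.187% the opposite. At HSP90B1 the covered length was 5.64, 5.79 and 6.61 kb in CTRL and 7.30, 8.82 and 7.17 kb in VPA. At XBP1 it was 4.79, 5.69 and 5.67 kb in CTRL and 6.89, 6.85 and 6.24 kb in VPA. Both reached the smallest exact permutation p of 0.1. The VPA mean exceeded the CTRL mean by 1.75 kb at HSP90B1 and 1.28 kb at XBP1. With the gene body alone these differences were 0.441 and 0.019 kb.

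The covered length of HSPA5 was 3.47, 2.88 and 3.82 kb in CTRL and 3.34, 5.13 and 5.21 kb in VPA, so that VPA replicate 1 lay inside the CTRL range and the other VPA libraries above it. The same arrangement held at CALR, with 8.15, 10.4 and 10.3 kb in CTRL and 9.75, 14.7 and 13.9 kb in VPA, and at ATF4, with 6.78, 10.2 and 9.84 kb in CTRL and 8.06, 13.4 and 11.3 kb in VPA. PDIA4 had 2.70, 4.37 and 3.80 kb in CTRL and 4.33, 5.69 and 5.55 kb in VPA. DDIT3 had 5.11, 5.90 and 5.92 kb in CTRL and 5.67, 8.11 and 6.81 kb in VPA. DNAJB9 showed the smallest ratio, 1.13, with 2.88, 3.18 and 3.03 kb in CTRL and 2.96, 4.15 and 3.14 kb in VPA. Without VPA replicate 1, 7 of the 8 genes were separate between the groups, all but DNAJB9 and all longer in VPA, as were 75.8% of all genes. Within replicate numbers all 3 pairs were longer in VPA at 7 of 8 genes, all but HSPA5, and at 73.7% of all genes. When each list was limited to its 26299 strongest peaks, the length of the shortest list, 0 of the 8 genes and 20.7% of all genes were longer without overlap.

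**Figure D4:**
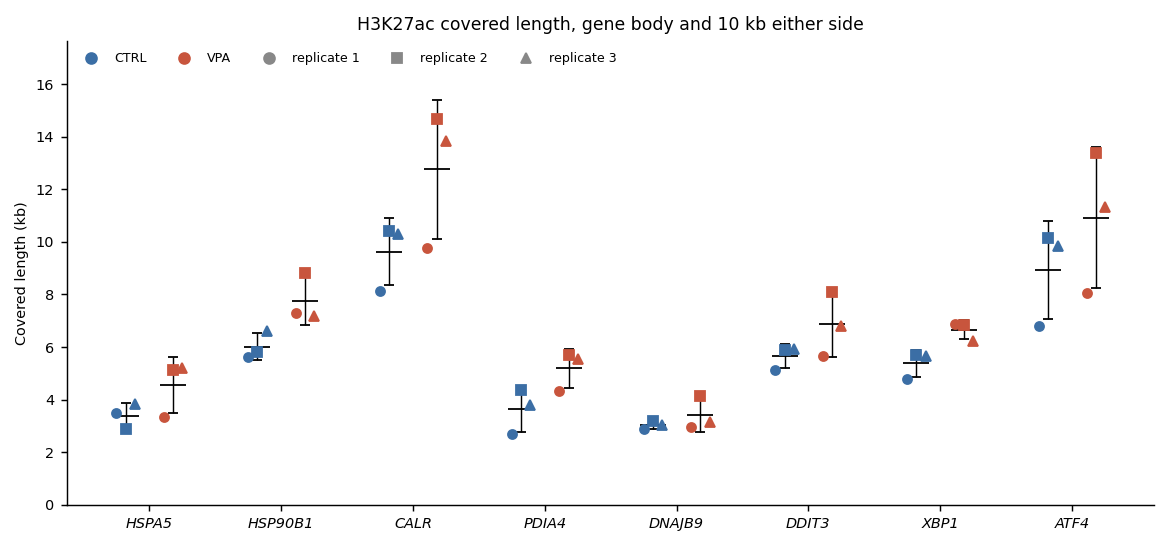
Length in kb covered by H3K27ac peaks in the body of each gene and 10 kb either side, in the 3 CTRL (blue) and 3 VPA (red) libraries, with the mean and SD in black. The mean is longer in VPA at 8 of 8 genes, and the groups are separate at HSP90B1 and XBP1.

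Summed over the 8 windows, the mean covered length was 45.6 kb in CTRL and 58.1 kb in VPA. The promoter regions held 31.9 kb of this in CTRL and 37.1 kb in VPA, and the sequence outside them 13.7 and 21.05 kb. The promoter region itself was wider on average in VPA at 8 of 8 genes, with a median ratio of 1.12 against 1.15 at all regions with a TSS. CALR, with 3.31, 3.75 and 4.00 kb in CTRL and 4.29, 5.72 and 4.56 kb in VPA, was the only one whose groups did not overlap. Among all regions with a TSS 18.3% were wider in VPA and 0.0197% narrower in this sense. The share of them that was wider on average was not taken.

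The number of H3K27ac peaks at the 8 genes summed to 23, 18 and 15 in CTRL and 26, 23 and 27 in VPA. No gene had separate groups by peak number, while 12.2% of all genes were higher in VPA without overlap and 0.175% lower. The peaks fell into 33 regions, of which 16 were present in all 6 libraries, 3 in some libraries of both treatments and 14 in VPA libraries alone. Of all 55382 H3K27ac regions 39.4% had peaks in VPA libraries alone, in any number of them. None of the 33 had peaks in CTRL libraries alone, against 5.2% of all regions. Of the 14 regions, 9 were found in 1 VPA library and 5 in 2, and 0 had a peak in all 3 VPA libraries and no CTRL library, an arrangement that 4.12% of all regions had. The reverse arrangement was found in 0.139% of all regions. The 14 regions lay at 6 genes, all but DNAJB9 and DDIT3. Their peaks covered 295 to 1047 bp, had heights of 4.81 to 10.1 and ranked between the 3.27th and the 42.0th percentile of their lists, well under the promoter peaks. The strongest by rank lay 2.97 kb downstream of the HSP90B1 TSS in an intron, with a height of 8.70 in VPA replicate 1 and 4.81 in VPA replicate 2.

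Part of the H3K27ac in these windows belongs to neighbouring genes. For instance, the window of CALR holds the promoter peak of FARSA, that of HSP90B1 the peak at UQCC6, and the edge of the ATF4 window a peak at RPS19BP1. The edges of the CALR and HSP90B1 windows also touch the promoter peaks of GADD45GIP1 and TDG in 2 libraries and 1 library. Away from promoters, 2 regions had a peak in all 6 libraries. The region in a PDIA4 intron, 10.4 kb downstream of its TSS, had heights of 8.82, 7.92 and 11.4 in CTRL and 13.0, 9.87 and 10.1 in VPA. The region 7001 bp upstream of the XBP1 TSS, in an intron of the transcript ENSG00000226471, had heights of 13.2, 13.5 and 14.3 in CTRL and 16.0, 13.4 and 15.0 in VPA. Both groups overlapped at each of them, and the mean was higher in VPA with ratios of 1.17 and 1.09.

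CTCF was sparse at these genes. The 47 peaks fell into 12 regions, 5 of them with a peak in all 6 libraries, and the peak number was 7, 10 and 7 in CTRL and 5, 10 and 8 in VPA. HSP90B1 had no CTCF peak in any library. HSPA5 had 1, in CTRL replicate 2, 230 bp downstream of the TSS with a height of 11.2. DNAJB9 had 1, in VPA replicate 2, with a height of 5.16. CALR had a peak near the TSS in CTRL replicate 2, with a height of 8.14, and one in an intron of FARSA in VPA replicates 2 and 3, with heights of 9.78 and 9.19. These peaks ranked no higher than the 8.05th percentile of their lists.

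**Figure D5:**
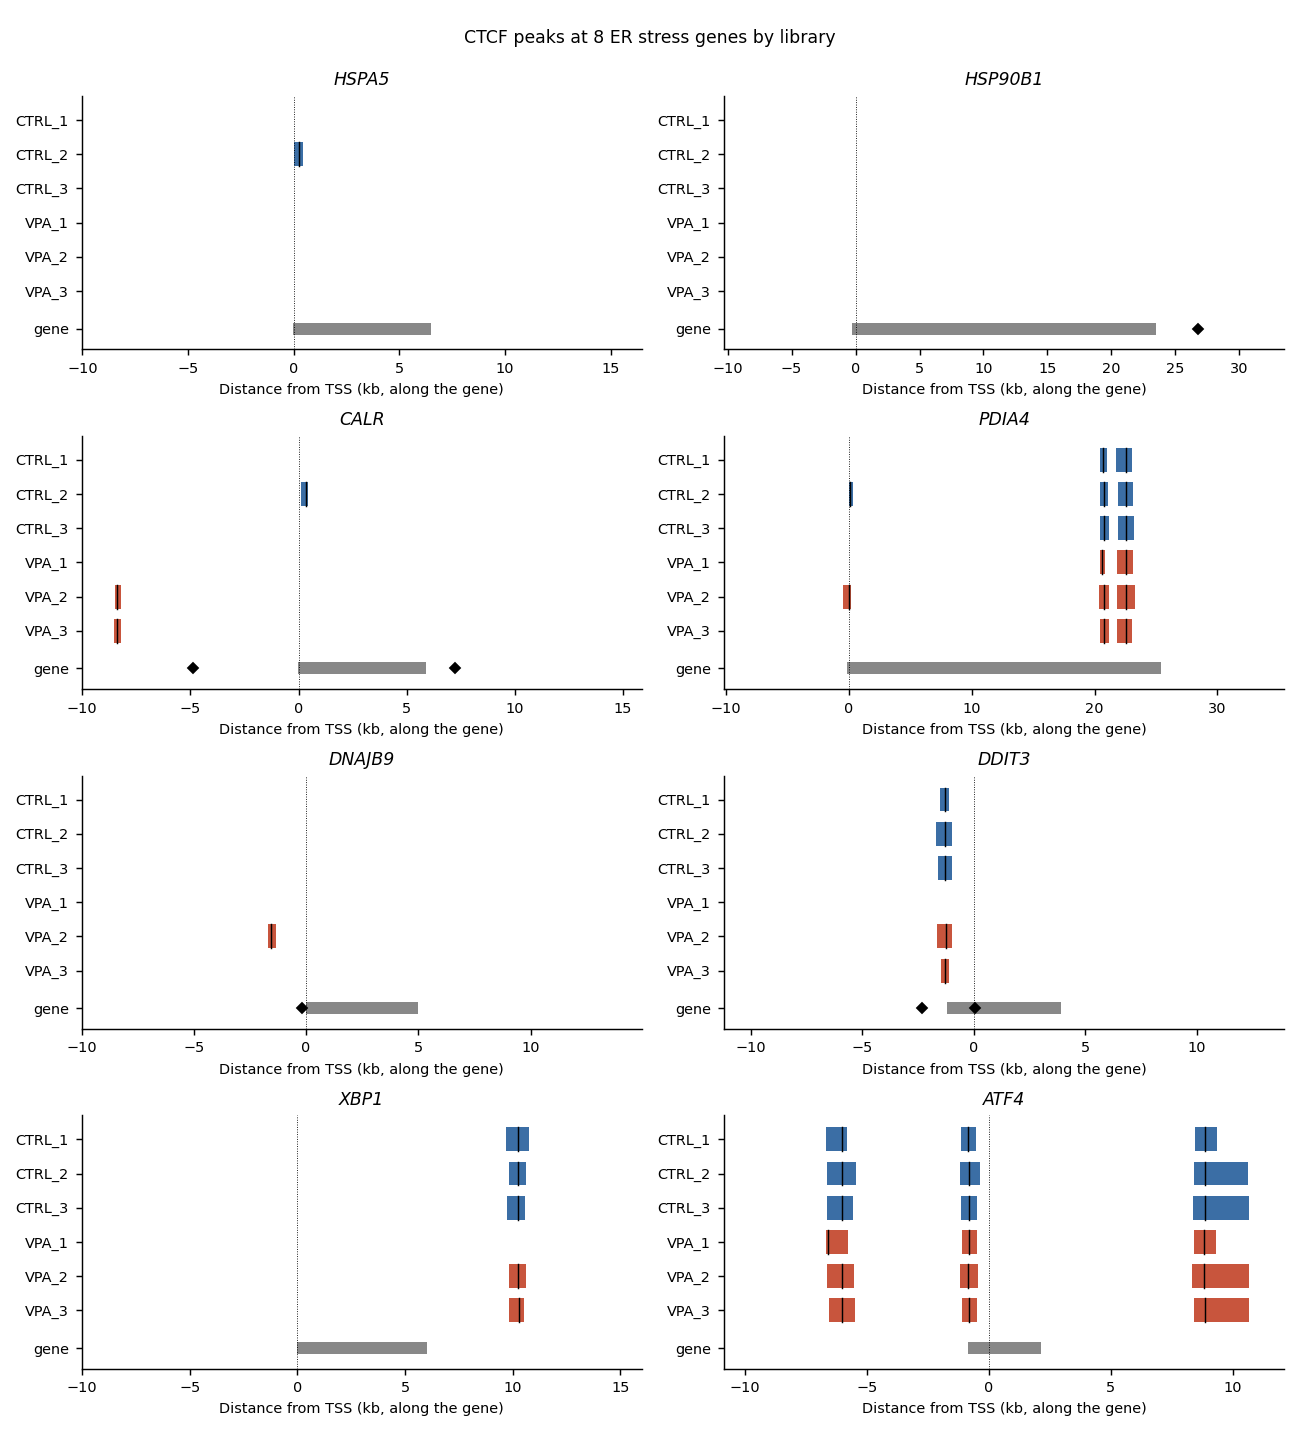
CTCF peaks (bars) and their summits (black ticks) in each of the 3 CTRL (blue) and 3 VPA (red) libraries, by distance from the TSS in kb along the gene, with the gene body in grey and the TSS of other protein-coding genes as diamonds. PDIA4 and ATF4 hold the 5 regions with a peak in 6 of 6 libraries, DDIT3 and XBP1 each have 1 in 5 of 6, and HSP90B1 has none.

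The lasting CTCF regions lay at PDIA4 and ATF4, and a core CTCF motif of 12 bases was found at 3 of these 5 within 100 bp of the summit with at most 1 mismatch. Of all 27794 shared CTCF regions 50.4% held such a match, and of all 69985 regions 36.3%. The matches of the PDIA4 and ATF4 regions, and that of the weak CALR region, are shown with 9 bases on either side on the strand of the motif, read from hg38, with the 12 bases in capitals (chr7:149005930-149005959, chr7:149007745-149007774, chr22:39529386-39529415 and chr19:12930192-12930221).
PDIA4 region at 22.6 kb, plus strand, 0 mismatches: agtagacgaCCACCAGGGGGCgcctggtgt
PDIA4 region at 20.7 kb, minus strand, 1 mismatch: cgggcagctCCAGCTGGGGGCtacagaggg
ATF4 region at 8.84 kb, minus strand, 0 mismatches: gccgcgcggCCAGCAGATGGCgatgcagga
CALR region, plus strand, 1 mismatch: gggcctgagCCTGCAGGGGGCacccactca

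The ATF4 region 8.84 kb downstream of the TSS, in an exon of RPS19BP1, was the strongest, with ranks above the 99th percentile, the lowest at 99.2, in every library. Its heights were 979.5, 428.5 and 408.6 in CTRL and 1480, 493.5 and 422.0 in VPA. Replicate 1 was far above the others in both treatments, and the groups overlapped. The region in an exon of MIEF1, 6.02 kb upstream, went the other way in replicate 1. Its heights were 31.7 in CTRL replicate 1 and 21.5 in VPA replicate 1, against 163.8 to 192.1 in the other 4 libraries. The third region, 814 bp upstream of the TSS in an exon of ATF4, had heights of 87.2, 52.4 and 55.5 in CTRL and 100.5, 38.9 and 33.4 in VPA.

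In PDIA4, the region in an exon 22.6 kb downstream of the TSS had heights of 580.9, 304.8 and 275.7 in CTRL and 192.9, 303.0 and 253.5 in VPA. The intronic region 20.7 kb downstream had 81.7, 52.2 and 52.2 in CTRL and 34.5, 51.6 and 39.6 in VPA. The second was the only one of the 5 regions with VPA below CTRL in all libraries, an order found at 1.84% of shared CTCF regions, while 0.281% had the opposite order. Its highest VPA value lay close to its lowest CTRL values, and its exact permutation p was 0.1. The peaks at DDIT3, 1.27 kb upstream of the TSS, had heights of 29.5, 23.9 and 23.2 in CTRL and 21.7 and 15.3 in VPA replicates 2 and 3. The peaks 10.2 kb downstream of the XBP1 TSS had heights of 21.6, 49.6 and 35.9 in CTRL and 34.5 and 29.0 in the same VPA replicates. In VPA replicate 1 neither was called. That list was the shortest of the CTCF lists, and a height below the calling threshold cannot be read from it.

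Counted per gene, CTCF did not separate the groups. By covered length 0 of 8 did, while 1.26% of the 16926 genes with a CTCF peak were higher in VPA and 1.86% lower. By peak number 0 of 8 did, against 0.396% and 0.874% of all genes. No region had peaks in all 3 libraries of one treatment and none of the other, an arrangement that 0.186% of all CTCF regions had for VPA and 0.326% for CTRL. With limma on fold enrichment 0 of the 27794 shared CTCF regions (0%) had an adjusted p under 0.05, and 83 had an unadjusted p under 0.05. The 5 regions at PDIA4 and ATF4 had limma log2 changes of -0.91 (SE 0.65) to 0.56 (SE 0.65), with adjusted p of 1.0.

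The wider ER stress response was represented by 35 further genes. Their covered H3K27ac length was longer in VPA without overlap at 11 of 35, near the 31.6% of all genes, and shorter at 0, and the median ratio was 1.29. By role these were 2 of 5 sensors and their proteases, 5 of 12 chaperones and foldases, 2 of 9 genes of ER-associated degradation and 2 of 9 targets of the ATF4 branch. TRIB3, a pseudokinase induced by ATF4 and DDIT3, had the highest ratio of the 11, 2.41, with 2.02, 2.61 and 2.82 kb in CTRL and 3.70, 7.03 and 7.18 kb in VPA. It was followed by ERN1 (the sensor IRE1) with 1.66, the disulfide isomerases PDIA6 with 1.62 and PDIA3 with 1.51, and MBTPS1, the protease that cleaves ATF6, with 1.41.

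Of these 35 genes 34 had an H3K27ac promoter region in all 6 libraries, and limma on fold enrichment called 0 of them. With the replicate block it called 5 lower and 0 higher, against 6.08% and 6.87% of all shared regions, not only those with a TSS. These 5, named after their values had been seen, were DDIT4 (-1.01, adjusted p = 0.00935), CHAC1 (-0.80, adjusted p = 0.0228), ATF3 (-0.76, adjusted p = 0.0266) and SESN2 (-0.70, adjusted p = 0.0462) of the ATF4 branch, and MBTPS1 (-0.69, adjusted p = 0.0439). On the summit pileup limma called 14 of the 34 lower and 2 higher. It called 33.3% of the regions with a TSS lower and 12.2% of all shared regions higher. Shares of the regions with a TSS were not taken for the replicate block or for the higher calls. With the replicate block the median limma log2 change was -0.373 at the 34 promoter regions and -0.323 at those of the 8 genes. It was -0.182 at regions with a TSS and -0.0496 at all shared regions, and these differences were not tested.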

How the data were processed

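ChIP-seq of H3K27ac and CTCF was analysed in 12 libraries of HEK293T cells, 3 replicates per antibody and treatment. The 6 input samples of the series were not analysed here. The authors aligned paired reads to hg38 with Bowtie2 and called peaks in each library with MACS (MACS3 3.0.0a7 in the submitters' processing notes, which also list DiffBind) at a q-value of 0.05. The deposited lists give for each peak the fold enrichment, a ratio over the local background, and its p-value and q-value as −log10, all from the authors' peak caller. They hold no read totals. Whether input libraries were used in calling is not given in the sources used here.

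The summit pileup and local background were recovered by taking the fold as (pileup + 1)/(background + 1) and a Poisson tail for the p-value. The pileup was whole within 0.05 at 100% of the peaks tested. Peaks sharing 1 bp were merged into regions, and for each region the strongest value per library was used. Strength was tested with limma 3.58.1 (R 4.3.3), and gene values with a two-sided exact permutation test over samples, for which 3 against 3 gives no p below 0.1 and 3 pairs none below 0.25. Scripts were tested on simulated data. Genes were taken from GENCODE release 44, and a gene was counted among all genes if it had a peak of the antibody in its window. All 8 genes and every pathway gene were reported by count, and of the pathway genes with separate groups the 5 with the highest ratio were named. The members and lists were chosen with earlier results of these data known.

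Samples of the same replicate number deviated together in H3K27ac (correlation of their deviations from the group means over 18407 regions 0.865, 0.585 and 0.591), so the number was treated as a pairing. It comes from the data and not from a stated shared batch, and mainly separates replicate 1, since CTRL replicate 2 correlated by 0.607 with VPA replicate 3. Alternatives were other centring, the summit pileup, the replicate block, peaks with −log10 q of 3 or more, other windows, lists of equal length and leaving out each library. Some neighbouring genes are not reported here.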

Additional observations from a re-analysis of the deposited data

How the results depend on the processing

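Peak lists limit all values: a library without a peak has no value, depth is known only relatively, and with 3 samples a group the exact test cannot pass 0.05. The count of H3K27ac regions called by limma was 0 with fold enrichment, 2383 with the replicate block, 6382 with the summit pileup, and, in fits added after seeing the data, 9907 with the summit pileup and replicate block and 2641 without centring but with the replicate block. It was 0 with quantile normalization, without centring, with peaks of −log10 q of 3 or more, where peaks had to cover 50% of the region (also added), and on leaving out any library. For CTCF it was 0 in all of these, replicate block included, and its same-number correlations of 0.34, -0.0451 and 0.477 do not show a pairing. The planned rule of sharing 50% of the peak or of the region changes nothing for merged peaks and was not run.

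Among the 8 genes, separate groups by H3K27ac covered length numbered 2, and 0 with lists of equal length, 1 with the gene body alone and 7 with the replicate block (all 3 pairs in one direction). Leaving out 1 library gave 2 to 7, the 7 without VPA replicate 1. By H3K27ac peak number it was 0, 1 with the replicate block and 0 to 1 on leaving out 1 library. By CTCF covered length it was 0, 1 with 25 kb on either side, 1 with the replicate block and 0 to 3 on leaving out 1 library, the 3 without VPA replicate 2, and by CTCF peak number 0 throughout. Promoter height was lower without overlap at 6 of 8, at 5 when given in fragments, and at 6 to 8 on leaving out 1 library. The share of regions with a TSS was 31.6% in fragments, and 37.0% to 46.7% on leaving out any library but VPA replicate 1. The 8 were reached without VPA replicate 1, where the share of regions with a TSS went from 36.9% to 81.2%. The cause of these shifts was not tested. Shares over all genes were taken only for H3K27ac covered length with equal lists, with the replicate block and without VPA replicate 1. For the other alternatives by gene they were not taken, so those counts have no reference.

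Some log2 changes turned sign, and not only those near 0. The PDIA4 promoter (0.05) went to -0.037 without centring, with or without the replicate block, to -0.11 with the summit pileup, with or without the replicate block, and ran from -0.10 to 0.30 on leaving out 1 library. The DNAJB9 promoter (-0.044) went to 0.26 with quantile normalization and 0.11 with 50% of the region covered, and ran from -0.19 to 0.096 on leaving out 1 library. The DDIT3 promoter (-0.18) went to 0.00023 with quantile normalization and ran from -0.49 to 0.066 on leaving out 1 library. For CTCF, the MIEF1 region upstream of ATF4 (-0.91) went to 0.059 with the summit pileup, with or without the replicate block. The region 814 bp upstream of the ATF4 TSS (0.024) went to -0.064 with quantile normalization, -0.093 without centring and -0.034 with the summit pileup, the last 2 with or without the replicate block, and ran from -0.30 to 0.34 on leaving out 1 library. The PDIA4 region at 22.6 kb (-0.32) ran from -0.72 to 0.29, the latter without CTRL replicate 1.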
